A study of Rattus norvegicus with 8 samples.

Results

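In the rat hippocampus, 8 genes of cholesterol synthesis and its control were examined: Hmgcs1, Idi1, Fdps, Fdft1, Sqle, Cyp51, Dhcr7 and Insig1. They were picked by gene name, with every non-control probe of the array that carries one of these names and with Cyp51a1 counted as Cyp51. This gave 11 of the array's 15207 probes, from 8 of its 11581 named genes. Hmgcs1, Idi1 and Dhcr7 had 2 probes each and the other genes 1 probe each.

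The study compared 4 hippocampal samples of PNFLX rats with 4 of control rats, each from whole hippocampi at 2 months of age. PNFLX pups had been given 10 mg/kg fluoxetine, a selective serotonin reuptake inhibitor, between postnatal days 2 and 21, and control pups a vehicle of 5% sucrose over the same days. The descriptions of single samples name last days of treatment from 21 up to 28, 1 day later from each sample to the next, and day 21 of the treatment protocol was used. The labels number the samples within a group without saying that each is a separate animal, so the p-values measure the spread between these samples, which may be technical.

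Cholesterol does not cross the blood-brain barrier, so the brain makes its own, in the adult largely in astrocytes, and myelin holds most of it. The pathway builds isoprenoid units from acetyl-CoA by way of mevalonate, joins them into squalene, closes squalene into lanosterol and trims lanosterol to cholesterol. Its enzymes are switched on together by the transcription factor SREBP-2, which Scap carries out of the endoplasmic reticulum when sterols are low and which Insig proteins hold back when sterols are high. Many SREBP targets carry binding sites for the cofactors NF-Y, which binds the CCAAT box, and Sp1, which binds GC boxes, close to the sterol regulatory element.

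The sequences of 3 probes whose values are described below are shown, all at rn4 positions of the deposited files. Which part of the transcript each probe covers was not examined. The Cyp51 probe lies at chr4:26775187-26775246 on the plus strand, Idi1 probe 2 at chr17:72570927-72571331 on the minus strand, and Hmgcs1 probe 2 at chr2:51680037-51680096 on the plus strand. The Idi1 probe is 60 bases long but spans 405 bases of the genome, and the Fdps probe spans 145 bases.
Cyp51 probe 1: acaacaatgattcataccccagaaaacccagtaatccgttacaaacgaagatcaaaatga
Idi1 probe 2: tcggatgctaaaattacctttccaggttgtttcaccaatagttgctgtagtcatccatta
Hmgcs1 probe 2: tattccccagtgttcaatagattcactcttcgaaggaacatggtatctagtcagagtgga

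Promoter sequences of the genes, from 250 bases before the start to 50 bases after it, were in the RefSeq table (GRCr8) for 6 of the 8 genes. A CCAAT box (CCAAT on either strand, so also ATTGG) was found in 4 of these 6, against 37.5% of the 33469 promoters in the table. A GC box (GGGCGG on either strand) was found in 5 of the 6, against 33.1% of all promoters. The sterol regulatory element, searched as TCACNCCAC on either strand, was found in 0 of the 6 and in 1.12% of all promoters. These matches describe the letters in the window and are not evidence of binding. Hmgcs1, Fdps and Idi1 had 2 CCAAT boxes each. Their promoters are shown because they hold this shared feature in its densest form among the 6, with the CCAAT boxes in capitals. They lie at chr2:53382054-53382353 on the plus strand for Hmgcs1, chr2:176804767-176805066 on the minus strand for Fdps and chr17:66547475-66547774 on the minus strand for Idi1.
Hmgcs1 promoter: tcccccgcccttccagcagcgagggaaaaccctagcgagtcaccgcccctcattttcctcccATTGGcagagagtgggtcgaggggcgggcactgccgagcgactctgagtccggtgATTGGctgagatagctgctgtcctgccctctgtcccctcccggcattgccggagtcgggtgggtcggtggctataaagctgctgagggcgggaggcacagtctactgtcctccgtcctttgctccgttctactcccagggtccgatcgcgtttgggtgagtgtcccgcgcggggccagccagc
Fdps promoter: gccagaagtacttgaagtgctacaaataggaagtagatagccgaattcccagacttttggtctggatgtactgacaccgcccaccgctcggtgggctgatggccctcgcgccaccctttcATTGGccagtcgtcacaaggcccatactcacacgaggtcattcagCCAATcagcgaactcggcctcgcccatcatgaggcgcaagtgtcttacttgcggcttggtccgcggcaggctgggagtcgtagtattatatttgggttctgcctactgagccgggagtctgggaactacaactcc
Idi1 promoter: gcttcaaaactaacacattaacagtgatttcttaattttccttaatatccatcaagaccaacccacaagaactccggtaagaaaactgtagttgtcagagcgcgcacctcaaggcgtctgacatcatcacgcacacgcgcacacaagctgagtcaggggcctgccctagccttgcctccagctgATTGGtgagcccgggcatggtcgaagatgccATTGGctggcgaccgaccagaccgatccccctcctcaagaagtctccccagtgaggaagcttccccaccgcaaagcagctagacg

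The RNA of each sample was labelled with Cy3 and hybridised to 1 single-colour array. Levels are on a log2 scale on which 0 stands for the 75th percentile of the array's own processed signals. The percentile ranged from 873 to 941 intensity units on the PNFLX arrays and from 654 to 880 on the control arrays, and between 70.5% and 77.9% of probes were well above background. All 8 arrays lay on 1 slide, the PNFLX arrays in 1 row and the control arrays in the next, so the groups cannot be told apart from the slide's rows. Of the 12 neuron markers listed, 11 were on the array and all of these were well above background on all 8 arrays, and so were 7 of the 9 hippocampal field markers that passed the filter. Prox1, the marker of dentate granule cells, was above background on 4 arrays. By markers of other tissue 2 arrays stood apart, PNFLX 1 by meningeal and fibroblast genes and control 4 by choroid plexus genes. Col1a1 was at 1.28 on PNFLX 1 and between -1.69 and 0.20 on the other arrays, and Ttr was at 5.07 on control 4 and between -4.10 and 1.14 on the others. In bulk tissue, fewer cells of a type and less RNA per cell cannot be told apart.

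None of the cholesterol genes passed the test between PNFLX and control. Of the 11 probes, 10 were well above background on at least 4 arrays and were tested with limma among 11600 probes. The PNFLX mean was higher for 5 of these 10 and lower for 5, the median of their log2 differences was 0.04, and 0 passed an adjusted p of 0.05, where 0.672% of all probes tested did. Limma adjusted p-values of the 10 ran from 0.277 to 0.985. An unadjusted limma p below 0.05 was seen for 1 of the 10, Cyp51, against 12.5% of all probes. The groups did not overlap for 0 of the 10 probes, against 10.7% of all probes. Standard errors between 0.11 and 0.21 log2 units set the size of change that 4 samples a group could resolve.

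**Figure D1:**
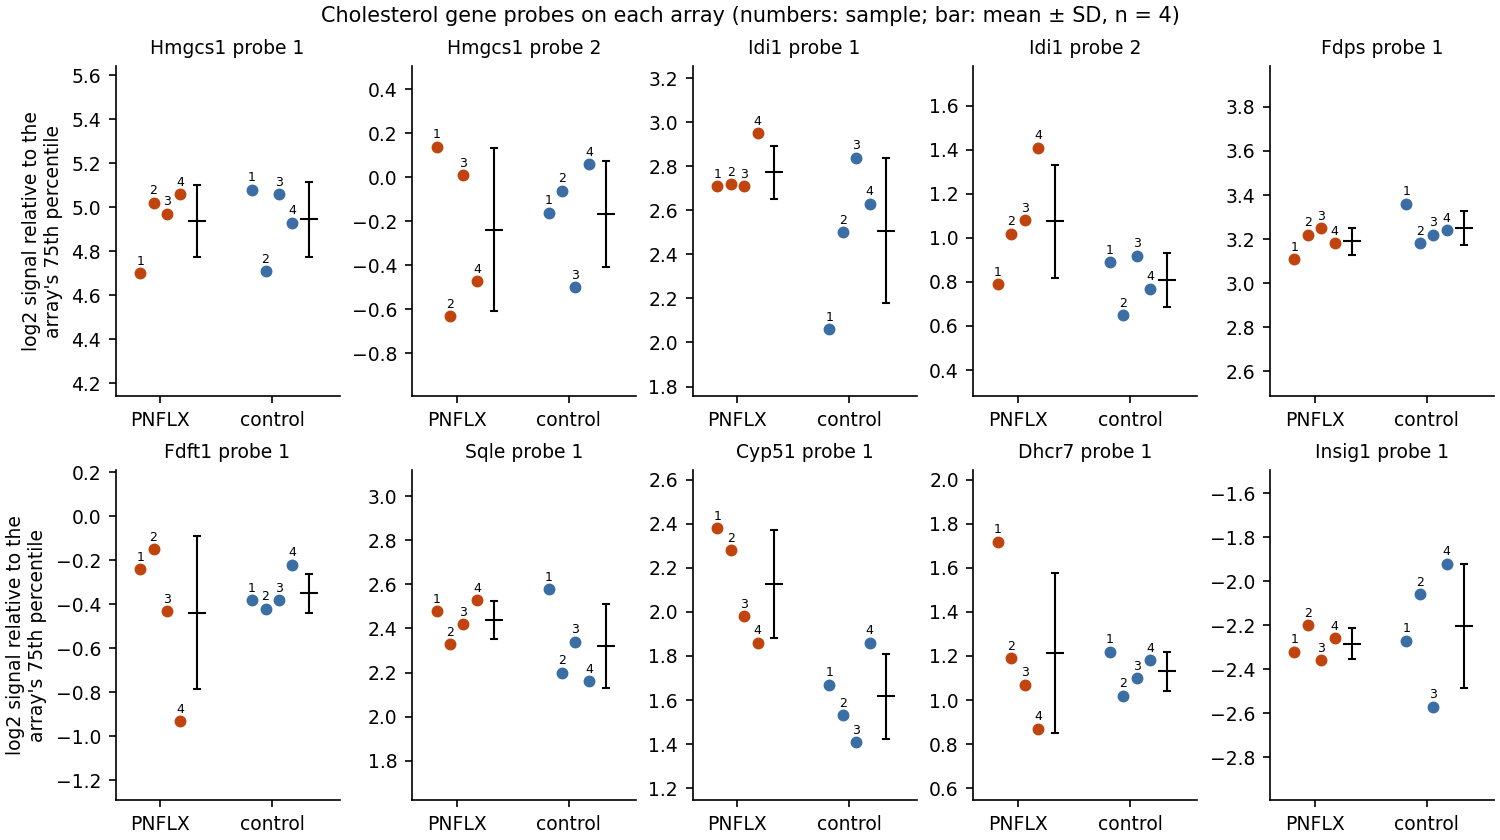
Log2 signal relative to the array's 75th percentile (vertical axes, each 1.5 log2 units tall) of the 10 tested probes on every array, PNFLX in orange and control in blue, with the sample number above each point and the mean ± SD (n = 4) beside it. PNFLX and control points overlap in every panel, and Cyp51 comes nearest to separating.

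Hmgcs1, the cytosolic HMG-CoA synthase, acts early in the pathway, before mevalonate. Its probe 1, at chr2:51682653-51682711, read 4.70, 5.02, 4.97 and 5.06 in PNFLX 1 to 4 and 5.08, 4.71, 5.06 and 4.93 in control 1 to 4. Each group had 1 low sample and 3 close together, and the means were 4.94 ± 0.16 in PNFLX and 4.95 ± 0.17 in control (SD, n = 4 each). The log2 difference was -0.01 (SE 0.14, limma adjusted p = 0.985), with a 95% interval of 0.791-fold to 1.25-fold. Hmgcs1 probe 2, whose sequence is given above, read 0.14, -0.63, 0.01 and -0.47 in PNFLX and -0.16, -0.06, -0.50 and 0.06 in control. It scattered more within both groups and differed by -0.07 (SE 0.21, adjusted p = 0.904).

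The 2 Hmgcs1 probes did not follow each other from array to array. Their Pearson correlation over the 8 arrays was -0.66, where the median over the 1584 genes with exactly 2 tested probes was 0.47 and 78.5% of those genes had a positive one. Without the scanner software's multiplicative detrending, described below, it was -0.06. Which arrays were high or low for Hmgcs1 thus differed between its probes.

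Idi1, the isomerase that turns isopentenyl diphosphate into dimethylallyl diphosphate, was measured by 2 probes that gave the same log2 difference of 0.27. Probe 1, at chr17:72568057-72568116, read 2.71, 2.72, 2.71 and 2.95 in PNFLX and 2.06, 2.50, 2.84 and 2.63 in control. The first 3 PNFLX samples were nearly equal, and the controls spread on both sides of them. Its difference did not pass the test (SE 0.18, limma adjusted p = 0.576). Probe 2, with the 405-base span, read 0.79, 1.02, 1.08 and 1.41 in PNFLX and 0.89, 0.65, 0.92 and 0.77 in control. Above all controls lay 3 PNFLX samples, and 1 lay among them (SE 0.16, adjusted p = 0.529). The 95% intervals were 0.901-fold to 1.61-fold and 0.933-fold to 1.55-fold. The 2 Idi1 probes correlated at 0.49 over the arrays, close to the median of 0.47 for genes with 2 probes, and both were highest on PNFLX 4. Leaving out control 1 lowered the difference of probe 1 to 0.12, and leaving out PNFLX 4 lowered that of probe 2 to 0.15.

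Fdps, the synthase of farnesyl diphosphate, was the steadiest of the 8 genes. Its probe, at chr2:181120298-181120442, read 3.11, 3.22, 3.25 and 3.18 in PNFLX and 3.36, 3.18, 3.22 and 3.24 in control. All 8 values lay within 0.25 log2 units of each other. The log2 difference was -0.06 (SE 0.11, limma adjusted p = 0.846), and its 95% interval ran from 0.801-fold to 1.15-fold, the narrowest of the 10.

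Fdft1, the squalene synthase that commits farnesyl diphosphate to sterols (probe at rn4 chr15:42452206-42452265), read -0.24, -0.15, -0.43 and -0.93 in PNFLX and -0.38, -0.42, -0.38 and -0.22 in control. The controls were close together, and PNFLX lay on both sides of them with sample 4 far below. The log2 difference was -0.08 (SE 0.19, limma adjusted p = 0.871), and 0.08 without PNFLX 4. Sqle, the squalene monooxygenase and a rate-limiting enzyme of the pathway (probe at rn4 chr7:96145679-96145738), read 2.48, 2.33, 2.42 and 2.53 in PNFLX and 2.58, 2.20, 2.34 and 2.16 in control. Its PNFLX values all fell inside the range of the controls. The log2 difference was 0.12 (SE 0.14, adjusted p = 0.739), with a 95% interval of 0.874-fold to 1.35-fold.

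Cyp51, the lanosterol 14-alpha-demethylase, had the largest difference of the 8 genes. It read 2.38, 2.28, 1.98 and 1.86 in PNFLX and 1.67, 1.53, 1.41 and 1.86 in control. PNFLX 1, 2 and 3 lay above all controls, and PNFLX 4 and control 4 were equal to 2 decimals. Cyp51 averaged 2.13 ± 0.25 in PNFLX and 1.62 ± 0.19 in control (SD, n = 4 each), a log2 difference of 0.51 (SE 0.17) or 1.42-fold. The 95% interval was 1.09-fold to 1.86-fold before any allowance for the number of probes tested. The limma adjusted p was 0.277. An exact permutation test of the 2 means, two-sided, gave p = 0.0571, where the smallest p that 4 against 4 samples can give is 0.0286.

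The direction of the Cyp51 difference depended on 1 step of the scanner software. Multiplicative detrending divides each spot's background-subtracted signal by a factor fitted to its position on the array. At the Cyp51 spot, in row 182 of 192, the log2 factor was -1.00, -0.67, -0.48 and -0.44 on PNFLX 1 to 4 and 0.07, 0.20, 0.08 and 0.03 on control 1 to 4. The division thus raised Cyp51 on every PNFLX array and lowered it on every control array, with mean log2 factors of -0.65 in PNFLX and 0.10 in control. Without it Cyp51 read 1.42, 1.63, 1.51 and 1.43 in PNFLX and 1.78, 1.78, 1.53 and 1.90 in control. The values then ran the other way, with all but 1 control above every PNFLX sample. The log2 difference became -0.25 (SE 0.12, limma adjusted p = 0.305). Normexp background correction started from the raw signal, so also without the detrending, and moved the median over all probes to -0.38. With normexp the log2 difference of Cyp51 was 0.02 (SE 0.29). With the detrending kept and spot row and column medians subtracted, it was 0.44 (SE 0.24). With those medians taken from probe-centred values it was 0.32 (SE 0.15). The background-subtracted signal without the detrending was the only alternative that turned its sign.

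Other probes around the Cyp51 spot moved with the same step. The 168 tested probes within 5 rows and 10 columns of it had a median log2 difference of 0.24 with the detrending and -0.48 without it. Cyp51 lay above that median under both settings. With the detrending, Cyp51 was also highest on PNFLX 1, the array with high meningeal and fibroblast markers. Without the detrending it was lowest on that array, at 1.42. Of 9 such markers tested, 7 were higher in PNFLX, and their summed signal ran between 17.6 and 43.4 times the array's 75th percentile in PNFLX and between 14.3 and 18.6 times in control. Without that array the log2 difference of Cyp51 was 0.42 (SE 0.17).

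Dhcr7, the reductase of the last step in one branch of the pathway, read 1.72, 1.19, 1.07 and 0.87 with its probe at chr1:204412018-204412077 in PNFLX and 1.22, 1.02, 1.10 and 1.18 in control. PNFLX 1 stood above and PNFLX 4 below all the controls, and the log2 difference was 0.08 (SE 0.19, limma adjusted p = 0.877), or -0.08 without PNFLX 1. This probe lay in row 9, near the other end of the array. Its log2 detrending factor was -0.45, 0.00, 0.06 and 0.00 on PNFLX 1 to 4 and -0.48, -0.53, -0.53 and -0.54 on control 1 to 4. Without the factor Dhcr7 read 1.30, 1.22, 1.15 and 0.89 in PNFLX and 0.77, 0.54, 0.61 and 0.66 in control. All PNFLX values were then above all controls, with a log2 difference of 0.49 (SE 0.13, adjusted p = 0.0811). The 168 tested probes around it had median differences of 0.30 with the detrending and 0.70 without it, so Dhcr7 lay below its surroundings under both settings.

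**Figure D2:**
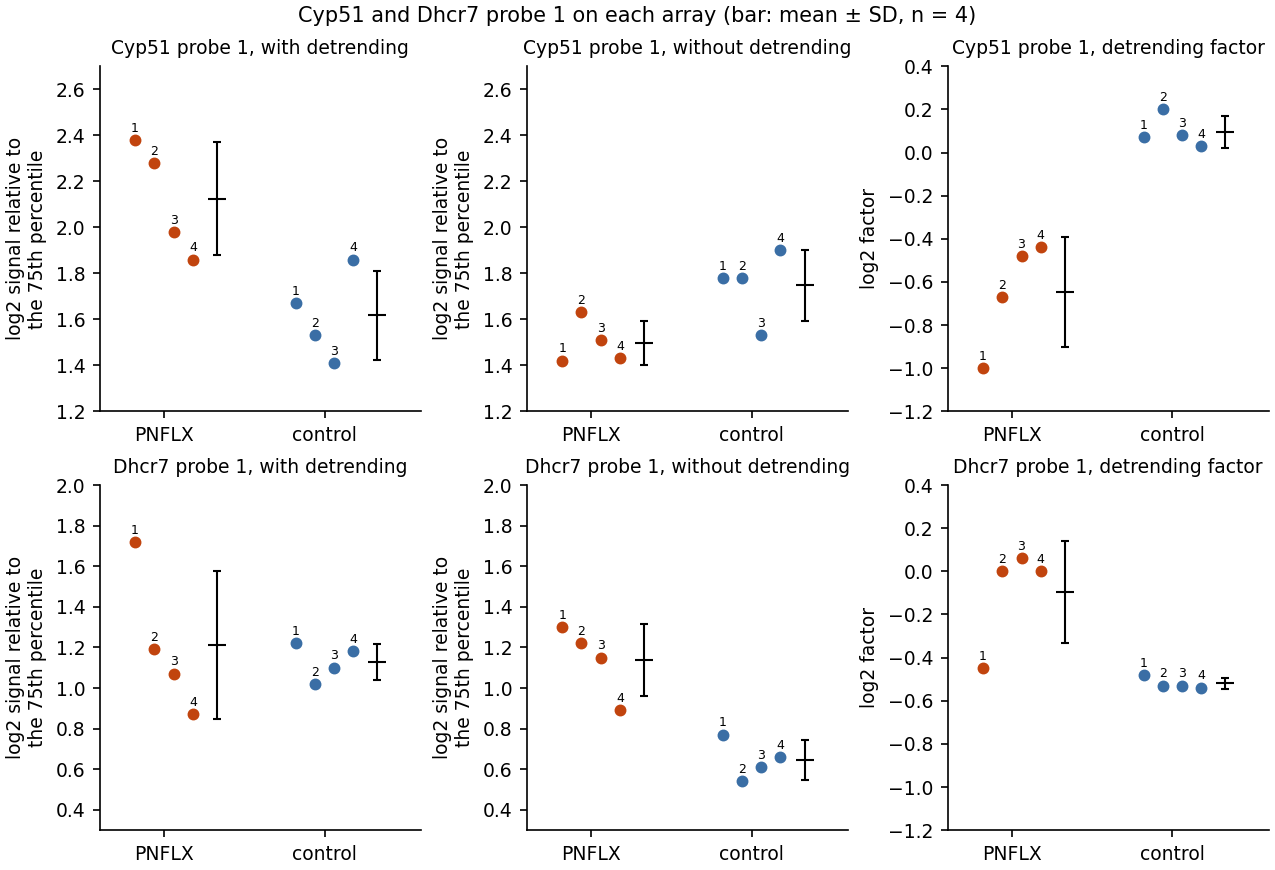
Cyp51 (top) and Dhcr7 probe 1 (bottom) on each array, PNFLX in orange left of control in blue, as log2 signal relative to the 75th percentile with and without multiplicative detrending and, at the right, the log2 detrending factor itself. Points carry the sample number and bars are mean ± SD (n = 4). The Cyp51 difference turns from 0.51 to -0.25 and the Dhcr7 difference from 0.08 to 0.49 when the factor is left out.

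The other Dhcr7 probe, at chr1:204412118-204412177, is given on the minus strand in the deposited files, while the gene is on the plus strand. Over 11087 probes with both strands known, 95.6% lay on the strand of their gene. The probe was well above background on 0 PNFLX and 2 control arrays and was left out of the test. It read -6.68, -7.41, -6.34 and -6.60 in PNFLX and -5.22, -6.15, -5.79 and -5.31 in control, so the groups did not overlap. PNFLX values under the array's lowest signal well above background were raised to that signal, and PNFLX was then 1.33-fold lower than control. Control values were not raised in this way, so 1.33-fold is not a firm lower bound. In the fit of all probes without the filter the limma adjusted p of this probe was 0.228. These values were not read as Dhcr7 mRNA.

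Insig1, the sterol sensor that retains the Scap-SREBP complex and is itself an SREBP target (probe at rn4 chr4:2578701-2578760), read -2.32, -2.20, -2.36 and -2.26 in PNFLX and -2.27, -2.06, -2.57 and -1.92 in control. The PNFLX samples were close together inside the wider range of the controls. The log2 difference was -0.08 (SE 0.16, limma adjusted p = 0.86), with a 95% interval of 0.731-fold to 1.22-fold. Without the detrending it was 0.30 (SE 0.18).

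Over the 10 tested probes, leaving out the detrending kept the sign of 7 and turned Cyp51, Fdps and Insig1. It gave 6 higher and 4 lower probes with a median of 0.05. Again 0 passed the adjusted p, where 3.98% of all probes did. An unadjusted limma p below 0.05 was seen for 2 (19.7% of all probes), Hmgcs1 probe 1 at -0.31 (SE 0.12) and Dhcr7 probe 1. The same 2 probes had groups that did not overlap, against 17.2% of all probes. Both Idi1 probes stayed higher in PNFLX, at 0.19 (SE 0.17) and 0.14 (SE 0.14).

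**Figure D3:**
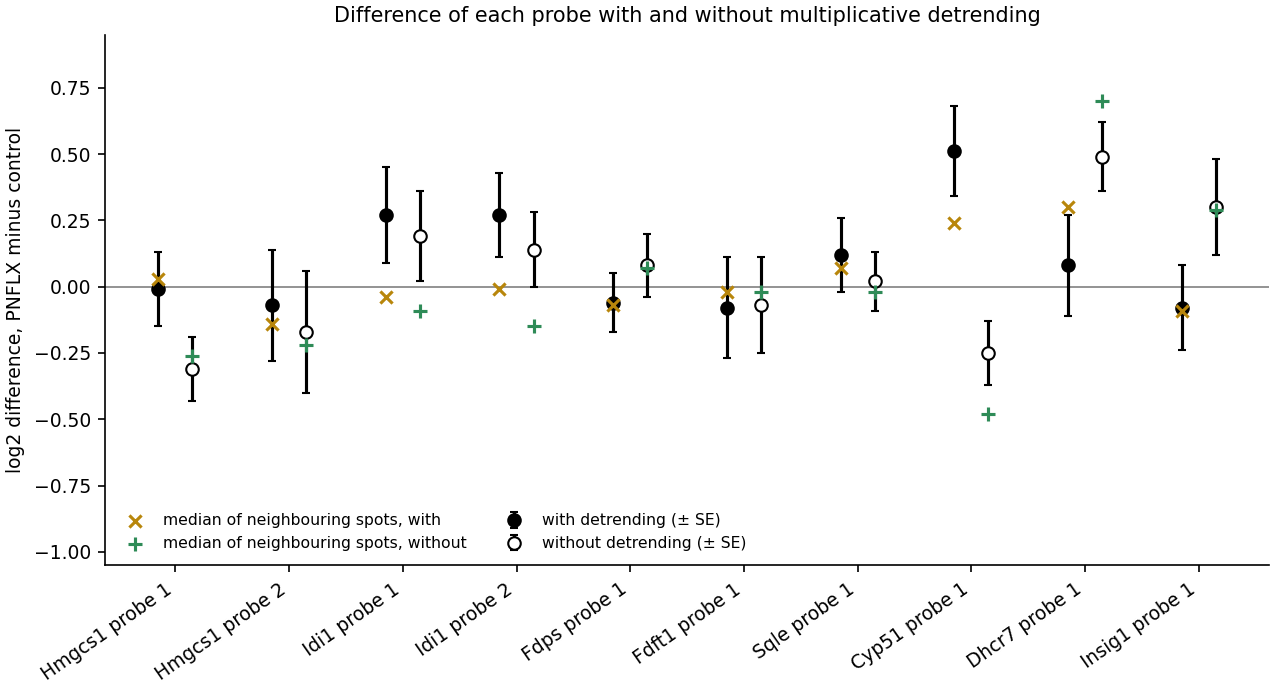
Log2 difference, PNFLX minus control (vertical axis), of each tested probe with (filled) and without (open) multiplicative detrending, with SE bars, beside the median difference of the tested probes within 5 rows and 10 columns of its spot with (crosses) and without (plus signs) it. The largest moves, at Cyp51, Dhcr7 probe 1, Insig1 and Hmgcs1 probe 1, go the same way as those of the probes around them. Cyp51 and both Idi1 probes lie farthest above the probes around them, with and without the detrending.

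Whether the 8 genes were high and low on the same arrays was asked pair by pair over the 8 arrays, with the brightest probe of each gene. Of the 28 pairs, 13 were positively correlated and 15 negatively, with a median Pearson r of -0.06 and a range of -0.71 to 0.65. Over all 42049035 pairs of genes the median was 0.04 and 52.9% were positive. After each group's mean was removed, 11 of the 28 were positive and the median was -0.15. All values share the 8 arrays and their scaling. The count of positive pairs depended on the processing. It was 15 without the detrending, 22 with spot row and column medians subtracted and 21 with those of probe-centred values. The share over all pairs of genes is not given for these settings, so these counts cannot be set against it.

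The most positive pair was Hmgcs1 and Fdps, with r = 0.65 (exact permutation p = 0.0866, 0.847 after Benjamini-Hochberg over the 28 pairs) and Spearman rho = 0.45 (exact permutation p = 0.267, adjusted 0.988). Without the 2 arrays farthest from the median of Hmgcs1, r was 0.23, so the relation rested on those arrays, and without the detrending r was 0.07. The most negative pair was Idi1 and Fdps, with r = -0.71 (exact permutation p = 0.0776, adjusted 0.847) and rho = -0.38 (exact permutation p = 0.36, adjusted 0.988). It too rested on 2 arrays, since r was 0.19 without the 2 farthest in Idi1, while it was -0.57 without the detrending. Fdft1 and Dhcr7 gave r = 0.62 (exact permutation p = 0.147, adjusted 0.847) and rho = 0.71 (exact permutation p = 0.0576, adjusted 0.988), with r = 0.67 without the 2 farthest arrays and 0.28 without the detrending. Both were lowest on PNFLX 4. Cyp51 and Dhcr7, at opposite ends of the array, gave r = 0.60 with detrending and -0.60 without it.

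**Figure D4:**
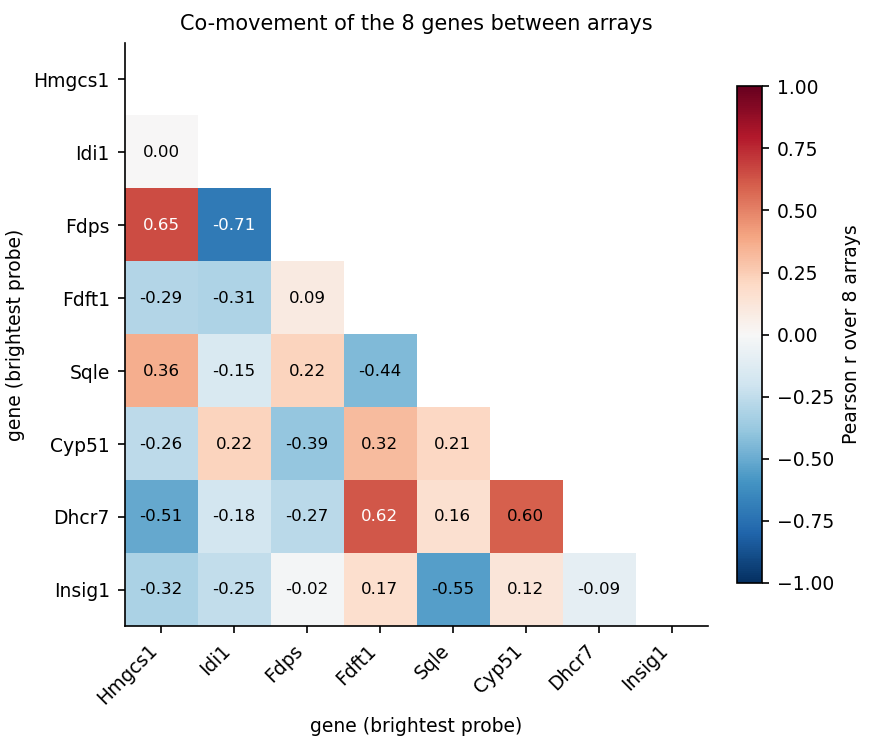
Pearson correlation (colour and printed value) of each pair of the 8 genes over the 8 arrays, by the brightest probe of each gene, in pathway order with the regulator Insig1 last. Positive and negative cells are mixed, 13 against 15, and the extremes are 0.65 for Hmgcs1 with Fdps and -0.71 for Idi1 with Fdps.

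With the detrending, no array was highest or lowest for more than 3 of the 8 genes. PNFLX 1 held the highest value of Cyp51 and Dhcr7 and the lowest of Hmgcs1 and Fdps. Control 1 held the highest value of Hmgcs1, Fdps and Sqle and the lowest of Idi1. PNFLX 4 was highest for Idi1 and lowest for Fdft1 and Dhcr7. The mean deviation of the 8 genes from their own means ran between -0.04 and 0.12 on PNFLX arrays and between -0.12 and 0.03 on control arrays.

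The genes whose array pattern was most like the mean of the 8 genes, each centred on its own mean, out of 9163 compared over the 8 arrays, were Rcan2 (r = 0.97), S1pr5 (0.95), the unnamed transcript XM_236360 (0.95), Aplp2 (0.93) and Ccnt2 (0.93). They are the extremes of 9163 correlations over only 8 arrays, so high values of r arise by selection. The probes of 4 of these 5 lay in rows 178 to 187, around the Cyp51 spot in row 182, and that of Ccnt2 in row 102. The mean pattern included Cyp51, whose range of 0.97 log2 units was the widest of the 8 genes by brightest probe. The rows are thus not independent of how these genes were picked. The most opposite were Cckbr (r = -0.93) and Dlx5 (r = -0.92).

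Of the other enzymes of sterol synthesis, 12 are described here, and all 12 were tested. In PNFLX 8 were higher and 4 lower, and their median difference was 0.09 log2 units. Without the detrending the balance turned, with 5 higher and 7 lower. Neither the adjusted nor the unadjusted limma p was below 0.05 for any of the 12 (0 and 0). Over all 9438 genes, 45.5% were higher in PNFLX. The 4 of smallest p were Mvd, the mevalonate diphosphate decarboxylase, at -0.31 (SE 0.16, limma adjusted p = 0.467), Sc5d, the sterol C5-desaturase, at 0.32 (SE 0.18), Pmvk, the phosphomevalonate kinase, at -0.18 (SE 0.11), and Ggps1, the geranylgeranyl diphosphate synthase, at 0.22 (SE 0.15). Mvd read 2.16, 2.20, 2.27 and 2.26 in PNFLX and 2.87, 2.52, 2.57 and 2.18 in control, with control 4 among the PNFLX values. Pmvk read 2.50, 2.42, 2.55 and 2.41 in PNFLX and 2.71, 2.58, 2.69 and 2.62 in control, and its groups did not overlap.

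Of the 14 genes that control SREBP or act with it, 13 were tested, with 7 higher, 6 lower and a median of 0.04. Without the detrending 4 were higher and 9 lower. None passed the limma adjusted p, and 0 had an unadjusted p below 0.05. The 4 of smallest p were Prkaa1, a catalytic subunit of AMP kinase, at 0.47 (SE 0.24, limma adjusted p = 0.472), Insig2, the other Insig, at 0.44 (SE 0.25), the NF-Y subunit Nfya at 0.24 (SE 0.17) and Mbtps1, the site-1 protease, at -0.31 (SE 0.25). Insig2 read -1.79, -1.41, -1.46 and -1.16 in PNFLX and -2.58, -1.54, -1.79 and -1.66 in control, with control 1 far below the rest. Srebf2 itself, named for its role as the genes' activator after its values were seen, gave 0.13 (SE 0.26). Its probe lay in row 179, near that of Cyp51, and without the detrending its difference was -0.46. Mbtps1 likewise gave -0.71 without it.

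**Figure D5:**
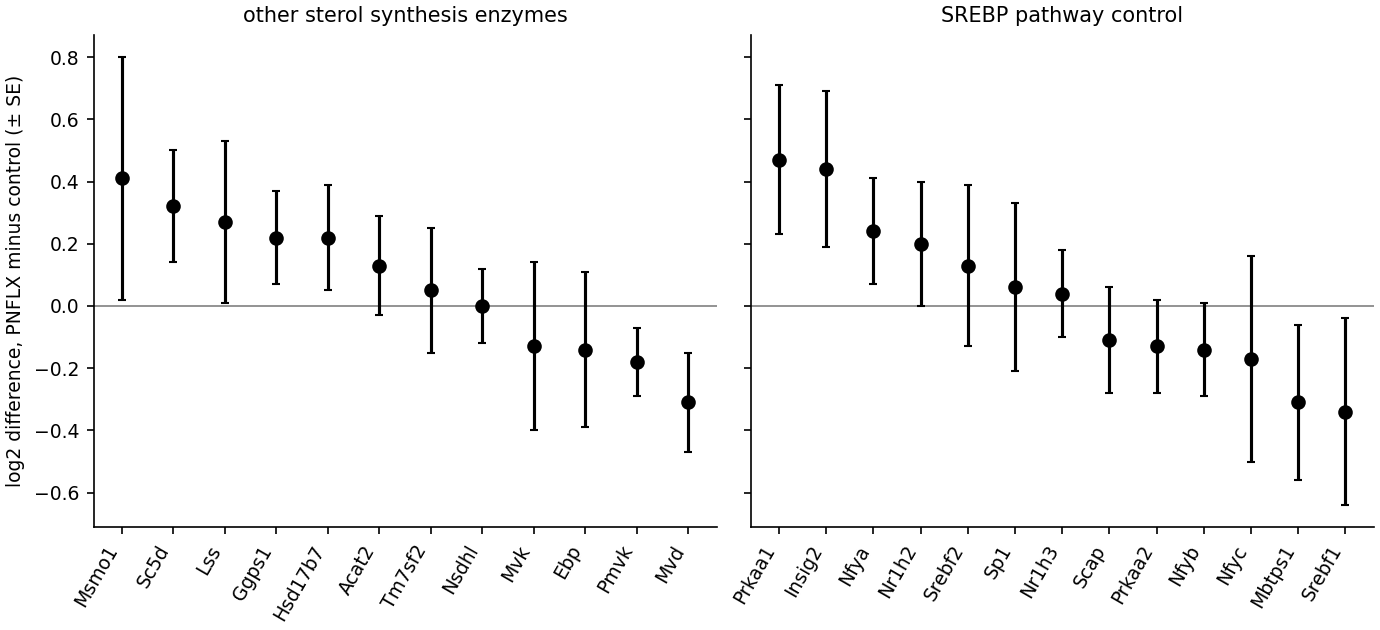
Log2 difference, PNFLX minus control, with SE bars, of 12 other sterol synthesis enzymes (left) and the 13 tested genes of SREBP control (right), each sorted from highest to lowest. All values are with the detrending. The points scatter on both sides of 0, and the widest bar is that of Msmo1 (SE 0.39).

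Of 23 genes of cholesterol uptake, transport and removal, 19 were tested, with 7 higher, 12 lower and a median of -0.17. Without the detrending the balance turned, with 12 higher and 7 lower. None passed the limma adjusted p, and 1 had an unadjusted p below 0.05. That one was Lcat, the plasma enzyme that esterifies cholesterol on lipoproteins, at -1.32 (SE 0.43, limma adjusted p = 0.271). It read -0.86, -2.33, -0.86 and -0.51 in PNFLX and -0.19, 1.03, 0.07 and -0.18 in control, so the groups did not overlap. Its probe lay in row 14, and without the detrending the difference was -0.32. Next came Stard4, a sterol carrier and SREBP target, at 0.26 (SE 0.12), Cyp7b1, the oxysterol 7-alpha-hydroxylase, at 0.27 (SE 0.13), and Abcg4, a sterol exporter, at -0.69 (SE 0.34). The PNFLX values of Stard4 and Cyp7b1 were above all controls, and without the detrending their differences were 0.13 and 0.12. The LDL receptor, a textbook SREBP-2 target, was well above background on 1 of 8 arrays and was not tested.

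Of the 12 tested genes of fatty acid synthesis, the branch driven mainly by SREBP-1c, 5 were higher and 7 lower with a median of -0.02, or 6 and 6 without the detrending. None passed the limma adjusted p, and 1 had an unadjusted p below 0.05. That was Elovl5, an elongase, at -0.67 (SE 0.24, limma adjusted p = 0.312), followed by Gpam at -0.36 (SE 0.22), Me1 at 0.24 (SE 0.16) and Scd2 at -0.29 (SE 0.31). Without the detrending Gpam and Me1 changed sign, to 0.50 and -0.13, and Scd2 gave -0.77.

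Cell types that make or hold brain cholesterol were checked by their markers. Of the 14 tested oligodendrocyte and myelin markers described here, 4 were higher and 10 lower in PNFLX with a median of -0.21. The limma adjusted p was passed by 0 and the unadjusted p was below 0.05 for 0. Their summed signal ran between 81.9 and 99 times the array's 75th percentile in PNFLX and between 91.6 and 118 times in control. Mag at -0.33 (SE 0.15), Mog at -0.28 (SE 0.14), Olig2 at -0.57 (SE 0.29) and Pdgfra at 0.31 (SE 0.21) had the smallest p, with a limma adjusted p of 0.426 for Mag. Without the detrending 7 of the 14 were lower, and Mag, Mog and Pdgfra gave 0.01, 0.00 and -0.08.

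Of 11 tested astrocyte markers, 5 were higher and 6 lower with a median of -0.05, and their summed signal ran between 57.4 and 82.6 times the percentile in PNFLX and between 79.5 and 87.7 times in control. Gja1 at -0.30 (SE 0.15), Gjb6 at 0.39 (SE 0.21), Fgfr3 at -0.56 (SE 0.31) and Aqp4 at 1.08 (SE 0.60) had the smallest p. Without the detrending 6 were higher and 5 lower, and Gja1 changed sign, to 0.32. The 11 neuron markers had 3 higher and 8 lower, with a median of -0.14 and sums of 125 to 143 in PNFLX and 119 to 167 in control. Map2 at -0.32 (SE 0.18), Gad2 at -0.29 (SE 0.16), Nefl at -0.32 (SE 0.19) and Slc17a7 at -0.22 (SE 0.23) had the smallest p. Without the detrending the neuron markers again had 3 higher and 8 lower, with Map2 at -0.08. None of the astrocyte and neuron markers passed the limma adjusted p, and 0 had an unadjusted p below 0.05. Medians were -0.17 over 10 microglia markers, -0.08 over 7 endothelial, -0.42 over 4 choroid plexus, 0.25 over 9 meningeal and fibroblast, 0.27 over 4 blood and 0.08 over 9 hippocampal field markers, with 0 past the adjusted p and 5 with an unadjusted limma p below 0.05 (Calb1, Col3a1, Bgn, Ahsp and Alas2). Of these 5, all stayed higher in PNFLX without the detrending, with Bgn at 0.09. Over all probes tested, 12.5% had an unadjusted limma p below 0.05. The part of cell makeup in the values of the cholesterol genes was not tested.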

How the data were processed

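Agilent Feature Extraction 10.5.1.1 made the deposited intensity values, per the file headers, with multiplicative detrending by spot position. They were not scaled between arrays. A table of log2 values deposited by the authors was compared with them: its columns equalled the values used here, less each probe's median over the 8 arrays, to within 0.00242. Medians of its columns were -0.04, -0.07, 0.10 and -0.13 (PNFLX 1 to 4) and 0.06, -0.05, 0.04 and 0.04 (control 1 to 4).

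Those values are log2 processed signals, less the 75th percentile of the array's 15207 non-control probes. Outlier-flagged spots, 521 in all, were dropped, and 11600 probes flagged well above background on 4 or more arrays were tested. Groups came from the source names. The tool was limma 3.58.1 in R 4.3.3 (group as the only factor, Benjamini-Hochberg over the 11600 probes, threshold 0.05), and the adjusted p-values in the text are from that fit. SE is limma's moderated standard error of the difference between PNFLX and control. For gene lists and correlations each gene was represented by its brightest probe (9438 genes and unnamed probes). The fit was tested on simulated data, where it called 70.6% of 4-fold, 42.4% of 2-fold and 9.09% of 1.5-fold changes. Most changes of 1.5-fold would thus be missed. Exact permutation tests used scipy 1.17.1. Signal without multiplicative detrending was the background-subtracted signal, scaled in the same way.

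Probe positions are those of the files (rn4). A RefSeq table (GRCr8) gave names for 14171 probes, and the promoter sequences. The members and gene lists were chosen with earlier results of these data known. Genes named were all 8 members, up to 4 of smallest p per list, and the 5 most like and 2 most opposite to the members' mean pattern, except where the text says otherwise. The LDL receptor was named for its role after its values were seen. Some genes of the lists are not reported here and were left out of the lists' counts, medians and sums after these had been computed with them. Replicate numbers did not pair the samples: correlations of same-numbered samples' deviations were 0.008, 0.084, 0.092 and 0.022. Alternatives covered scaling, background correction, the filter on dim probes, outlier spots, spot position, probes per gene, the variance model, the deposited table, the replicate block and leaving out each sample.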

Additional observations from a re-analysis of the deposited data

Results flagged for a closer look

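The value of Idi1 probe 1 on PNFLX 4 was 2.95 (log2, 0 being the 75th percentile), far from the other PNFLX arrays, which lay between 2.71 and 2.72. Its gap to the nearest of them was 0.969 of the group's whole range, above Dixon's critical value for 4 samples. Of 22 groups of 4 values checked (11 probes in PNFLX and in control), this was the only one past that value, and chance alone marks about 1 in 20. The log2 difference of Idi1 probe 1 was 0.21 (SE 0.19) without PNFLX 4, against 0.27 (SE 0.18) with it. The lowest difference of probe 1 with 1 sample left out was 0.12, without control 1. Idi1 probe 2 was also highest on PNFLX 4, at 1.41, and its difference was 0.15 without that sample, against 0.27 with it.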

How the results depend on the processing

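The count of member probes past an adjusted p of 0.05 was 0 under all 22 alternatives, and the smallest adjusted p of a member was 0.0621, for Cyp51 without scaling between arrays. The count over all probes was 78. It was 143 without scaling, which moved the median over all probes to 0.26, 50 with normexp (median -0.38), 46 without the filter on dim probes, 47 with probes well above background on all 8 arrays, 24 with spot row and column medians subtracted, 0 without the first and last 5 spot rows (1261 at an unadjusted limma p below 0.05), and 48 with the brightest probe per gene. With 1 sample left out it ran from 33 to 104, at 48, 37, 104 and 50 without PNFLX 1 to 4 and 46, 50, 35 and 33 without control 1 to 4. Of the 78, higher calls were 43, against 120 of 143 without scaling and 14 of 50 with normexp. With 2 alternatives chosen after seeing the data, it was 462 without multiplicative detrending (68 of the 78 among them) and 40 with row and column medians of probe-centred values subtracted. The replicate block, which rests on shared numbers only, gave 13 calls and called no member probe. The 13 positive member pairs became 28 without scaling, 22 with row and column medians subtracted and 21 with those of probe-centred values. Without scaling, all probes of an array carry its brightness. The share over all pairs of genes is not given for these settings, so the counts are not read as a result about the members.

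Signs turned as follows, with no call on either side. Without scaling, the log2 differences of Hmgcs1 probes 1 and 2, Fdps, Fdft1 and Insig1 were 0.29, 0.22, 0.24, 0.21 and 0.22, that is, near the shift of 0.26 of all probes. With normexp, where the median over all probes was -0.38, Hmgcs1 probe 1 and Fdps gave 0.02 and 0.39. With row and column medians subtracted, Hmgcs1 probes 1 and 2, Sqle and Dhcr7 probe 1 gave 0.28, 0.40, -0.30 and -0.08. Without detrending, Fdps, Cyp51 and Insig1 gave 0.08, -0.25 and 0.30. With medians of probe-centred values subtracted, Hmgcs1 probes 1 and 2, Fdps and Insig1 gave 0.01, 0.06, 0.02 and 0.07. With 1 sample left out, Hmgcs1 probe 1 ran from -0.09 to 0.07, probe 2 from -0.20 to 0.06, Fdft1 from -0.18 to 0.08, Dhcr7 probe 1 from -0.08 to 0.20 and Insig1 from -0.20 to 0.02. The samples whose absence turned a sign were PNFLX 1, control 1 and control 3 for Hmgcs1 probe 1 (0.07, 0.04 and 0.03), PNFLX 2, PNFLX 4 and control 4 for probe 2 (0.06, 0.00 and 0.00), PNFLX 4 for Fdft1, PNFLX 1 for Dhcr7 and control 4 for Insig1. Both Idi1 probes stayed above 0 under every alternative, between 0.12 and 0.56. The causes were not tested beyond what each alternative changes by its construction.

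Only 4 samples per group, 1 probe for most of the genes and signals that follow spot position limit these values. Cyp51 lay in row 182 and Dhcr7 probe 1 in row 9 of 192, where the detrending differed between the groups. The mean log2 factor, PNFLX minus control, also differed for Insig1 in row 20 (0.39) and Hmgcs1 probe 1 in row 166 (-0.29).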
